A study of Mus musculus with 6 samples.

Results

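Snora44 (ENSMUSG00000064604_Snora44) and Snora16a (ENSMUSG00000065097_Snora16a) are a pair of H/ACA small nucleolar RNAs (snoRNAs) encoded in 1 host locus, Snhg12, on mouse chromosome 4. Their contacts were read from a proximity-ligation assay that maps RNA interactions in vivo (MARIO), in which RNAs held by the same protein are joined through an RNA linker as RNA1–Linker–RNA2. The 2 genes were chosen by the number of read pairs that joined them to each other and by their high read-pair counts in these same libraries, so those counts are descriptions only. They are 2 of the 982 snoRNA names with at least 1 end in the libraries. A read pair was taken whenever either name stood at one of its ends, and read pairs of equal coordinates were collapsed into 1. This left 30522 of 2310134 read pairs in ES-1, 8227 of 1241787 in ES-2, 316 of 1655476 in ES indirect and 1457 of 373978 in MEF.

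ES-1 and ES-2 were separate assays on E14 mouse embryonic stem cells of strain 129/Ola, fixed with ultraviolet light of 254 nm and first cut with RNase I to about 1000 nt. That length is the one in the labels for both, and the study's methods give ES-1 a range that reaches longer fragments. They also differed in the removal of ribosomal RNA (rRNA), by duplex-specific nuclease in ES-1 and by the GeneRead kit in ES-2. ES indirect came from the same cell line, fixed with formaldehyde and EGS, broken by sonication to about 1000 nt and treated with duplex-specific nuclease. MEF came from embryonic fibroblasts of C57Bl/6 mice, fixed with 254 nm light, cut to about 300 nt and depleted with the GeneRead kit. ES indirect and MEF are 1 library each, and their reads came from other flow cells than those of ES-1 and ES-2. Cell type, crosslinker, fragment length, depletion and flow cell therefore cannot be told apart there. Exon ends of marker genes were counted as a check of the cell labels. The 5 stem cell markers Pou5f1, Sox2, Nanog, Dppa5a and Zfp42 summed to 498 ends in ES-1 and 218 in ES-2, with 632 for ES indirect and 10 for MEF. Of the 5 fibroblast markers, the collagen genes Col1a1, Col1a2 and Col3a1 followed the labels, with 6, 9 and 0 ends in ES-1 and 186, 115 and 45 in MEF. Fn1 had 556, 224 and 279 ends in the ES libraries and 75 in MEF, and Thy1 had 8, 5 and 1 and 2, counts that were not divided by the unlike totals of the libraries and from which no order is read. With ultraviolet light the assay was designed to ask which RNAs meet through a shared protein. The study made ES indirect to capture RNAs linked through several proteins too, so its contacts can be of another kind. The comparisons here ask where on these snoRNAs ligation took place and which RNAs were at the other end.

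H/ACA snoRNAs fold into a pair of hairpins joined by a hinge that holds the H box, of the form ANANNA, and end in a tail with an ACA box a few bases before the 3′ end. With the proteins dyskerin (Dkc1), Nop10, Nhp2 and Gar1 they form particles that change chosen uridines, chiefly in rRNA, into pseudouridine. A loop in a hairpin pairs with the bases on either side of the target. Most are cut from the introns of host genes, and many host genes, Snhg12 among them, encode no known protein and carry several snoRNAs.

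The locus lay on the plus strand of the NCBIM37 (mm9) build. Snhg12 spanned chr4:131864593-131866939 and held, from 5′ to 3′, Snora16a, Snora44, the H/ACA snoRNA Snora61 and the C/D snoRNA Snord99. Snora16a was 136 nt long and overlapped no annotated exon of Snhg12. Snora44 was 129 nt long, began 340 bases after the end of Snora16a, and lay wholly within an exon of an annotated Snhg12 transcript. The 2 sequences were identical at 53.7% of 147 aligned columns. Both are shown whole because the ligation positions below are counted along them, with the H box and the tail box in capitals. Snora44 is chr4:131865856-131865984 and Snora16a is chr4:131865380-131865515, both 5′ to 3′ on the plus strand.
Snora44: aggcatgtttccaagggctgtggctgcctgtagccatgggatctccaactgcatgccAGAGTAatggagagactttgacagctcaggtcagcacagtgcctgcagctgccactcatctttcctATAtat
Snora16a: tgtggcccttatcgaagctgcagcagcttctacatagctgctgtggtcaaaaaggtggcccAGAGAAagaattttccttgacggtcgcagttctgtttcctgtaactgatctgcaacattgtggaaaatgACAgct

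Counted from the 5′ start, the H box of Snora44 occupied positions 58 to 63 and that of Snora16a positions 62 to 67. The tail box began at position 124 in Snora44, where it read ATA, and at position 131 in Snora16a, where it read ACA. Each box was followed by 3 bases.

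Snora44 was named by 19551 read pairs in ES-1, which is 0.846% of the library (95% Wilson interval 0.835 to 0.858), and by 5941 in ES-2, which is 0.478% (0.466 to 0.491). Snora16a was named by 11002 read pairs in ES-1 (0.476%, 0.467 to 0.485) and by 2291 in ES-2 (0.184%, 0.177 to 0.192). Snora44 ranked 7 among 817 snoRNA names in ES-1 and 6 among 688 in ES-2, and Snora16a ranked 22 and 28. These intervals, and the others below, cover counting error within a library only and hold no replicate error. As the authors had removed PCR duplicates, lines of equal coordinates may be separate molecules that collapsing merged. Molecular identifiers that could tell them apart were not kept in the files. The gap between the 2 assays was far wider than the intervals.

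In MEF, Snora44 was named by 810 read pairs (0.217%, 0.202 to 0.232) and Snora16a by 647 (0.173%, 0.160 to 0.187), at ranks 15 and 20 of 542. These shares were 0.363% and 0.287% without fragments under 20 nt, and 0.455% and 0.341% without read pairs whose RNA2 was exactly 10 nt longer than RNA1, a setting chosen after seeing the data. In ES indirect the counts were 141 (0.00852%) and 175 (0.0106%), at ranks 39 and 32 of 541. Snora44 thus had more read pairs than Snora16a in 3 libraries, by 1.78 times in ES-1, 2.59 times in ES-2 and 1.25 times in MEF, and fewer in ES indirect, at 0.806 times. A share of read pairs does not measure the amount of an RNA, since fixing, cutting, ligation and the removal of rRNA also enter it. The study found expression only weakly correlated with the reads on an RNA, and no amount was measured here. Nor can such libraries tell fewer cells that hold an RNA from less of it per cell.

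The reads listed for each library came from a pair of flow cells, and the shares differed between them. ES-1 and ES-2 shared the same pair, and ES indirect and MEF shared another. In ES-1 Snora44 took 0.769% on one flow cell and 0.944% on the other, and in ES-2 0.493% and 0.458%. In ES indirect Snora44 took 0.00673% (65 read pairs) and 0.0110% (76), and Snora16a 0.00828% (80) and 0.0138% (95). In MEF Snora44 took 0.304% of the read pairs on one flow cell (788 read pairs) and 0.0191% on the other (22). Snora16a took 0.236% (612) and 0.0305% (35). The order of the 2 snoRNAs was thus reversed on that other flow cell. There the intervals overlap, at 0.0126 to 0.0290 for Snora44 and 0.0219 to 0.0424 for Snora16a. The MEF values therefore rest almost wholly on the first flow cell, and the part of the flow cell in them was not tested. The sources used here do not say whether both MEF flow cells carried the same library, so the pooled MEF shares may not be those of 1 library.

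**Figure D1:**
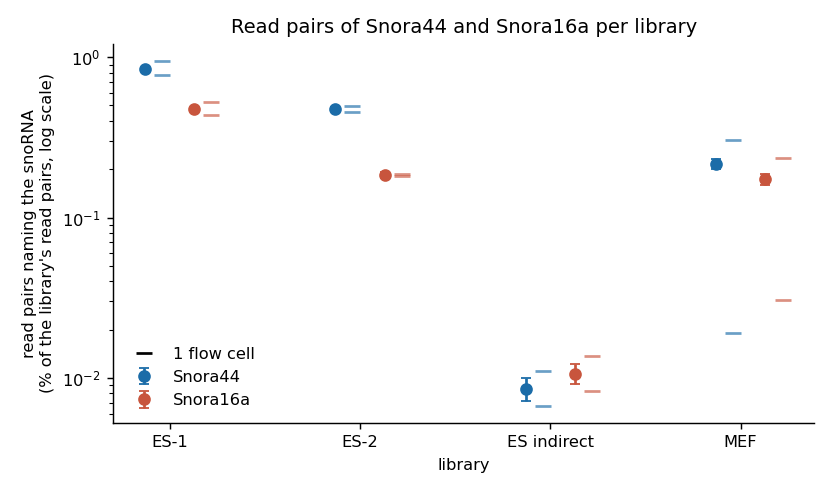
Share of each library's read pairs that name Snora44 or Snora16a (y axis, percent, log scale) in the 4 libraries (x axis). Points are library values with 95% Wilson intervals and short bars are single flow cells. Snora44 lies above Snora16a in ES-1, ES-2 and MEF, and the MEF flow cells lie furthest apart.

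Fragments of both snoRNAs were read from the annotated strand in at least 98.2% of ends in every library. Snora44 was RNA1, the fragment 5′ of the linker, in 13543 ends of ES-1 and RNA2, the fragment 3′ of the linker, in 6563. In ES-2 it was RNA1 in 2693 and RNA2 in 3394. Snora16a was mostly RNA1, with 9203 ends against 2034 in ES-1 and 1857 against 469 in ES-2. In MEF both were more often RNA2, Snora44 in 641 ends against 178 and Snora16a in 399 against 265. The same held for ES indirect, with 90 ends against 63 for Snora44 and 123 against 73 for Snora16a. The RNA2 share was thus higher for Snora44 than for Snora16a in 3 libraries and slightly lower in ES indirect.

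Snora44 and Snora16a were joined to each other in 31 read pairs of ES-1 (65 before collapsing) and in 5 of ES-2 (6 before collapsing). These were 0.102% of all read pairs of the 2 RNAs in ES-1 (0.0716 to 0.144) and 0.0608% in ES-2 (0.0260 to 0.142). No such read pair was found among the 316 in ES indirect, which allows a share of up to 0.949%, nor among the 1457 in MEF, which allows up to 0.206%. Both limits lie above the ES values, so at this depth no difference from ES-1 or ES-2 was detectable.

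Snora16a was RNA1 in 23 of the 31 read pairs in ES-1 and in 4 of the 5 in ES-2. The share with Snora16a first was 74.2% (56.8 to 86.3) in ES-1, where the RNA1 and RNA2 totals of the 2 snoRNAs alone predicted 68.7%, and 80% against 83.3% in ES-2. The order of joining therefore lay within counting error of what those totals predicted. All 31 and all 5 read pairs matched the genome at both stated places.

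In the orientation with Snora16a first, 11 of the 23 read pairs of ES-1 had an RNA1 that ended within 2 nt of the 3′ end of Snora16a, 14 had an RNA2 that started within 2 nt of the 5′ start of Snora44, and 7 had both. In ES-2 all 4 had both. The 23 read pairs held 18 distinct junctions, of which the one that joined the mature end of Snora16a to the first base of Snora44 recurred most. In 10 of the 23 and 1 of the 4, RNA2 was exactly 10 nt longer than RNA1 or a fragment filled its read, and there the end of RNA1 may be the end of the read rather than the ligation point. With Snora44 first, 1 of 8 read pairs in ES-1 had both ends in place.
The bases at these ends are shown because they carry the junctions. Capitals mark bases inside the snoRNA and lower case the bases of Snhg12 beside it.
Snora16a 3′ end, chr4:131865486-131865527: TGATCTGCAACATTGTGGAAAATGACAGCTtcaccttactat
Snora44 5′ start, chr4:131865844-131865885: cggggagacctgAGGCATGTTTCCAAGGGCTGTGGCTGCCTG

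Snora44 and Snora16a were 1 of 174 pairs of snoRNA genes on the same strand within 2000 bases of each other that had ends in ES-1. They ranked 9 by read pairs, 18 by read pairs as a percentage of the ends of both genes (0.0989%) and 50 by read pairs over the product of those ends. Of the 174 pairs, 76 had any read pair. In ES-2 the ranks were 9, 16 and 22 of 121 pairs, of which 30 had any. The neighbouring pair with the most read pairs in ES-1 was Snora73a with Snora73b (468), the U17 snoRNAs that act in rRNA processing. Over the other neighbouring pairs the upstream gene was RNA1 in 47.3% (ES-1) and 55.0% (ES-2) of read pairs.

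The other RNAs of the host locus had fewer read pairs with either snoRNA in ES-1 and ES-2 than the 2 had with each other, a count that makes no allowance for their own totals. Over the product of both totals, Snora44 with Snora61 was level with Snora44 and Snora16a in ES-1 and lower in ES-2, on 1 read pair. Snora44 with Snord99 was higher in ES-1 and ES-2, on few read pairs. Snora61, an H/ACA snoRNA, was joined to Snora44 in 17 read pairs of ES-1 and 1 of ES-2, and to Snora16a in 6 of ES-1 and 0 of ES-2. Snora61, which lies downstream of both, was RNA1 in every one of these. Snord99, a C/D snoRNA, was joined to Snora44 in 2 read pairs of ES-1 and 1 of ES-2 and to Snora16a in none. Snhg12 itself, apart from the snoRNAs inside it, was joined to Snora16a in 3 read pairs of ES indirect and to neither snoRNA in the other libraries. Fragments that ran over 5 nt past the annotated 3′ end were 350 of 20106 ends of Snora44 and 122 of 11237 of Snora16a in ES-1.

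Ligation positions were read from the 3′ end of RNA1 and the 5′ start of RNA2. In 27.08% of all ES-1 read pairs, 9.53% of those of ES-2, 48.97% of ES indirect and 69.9% of MEF, RNA2 was exactly 10 nt longer than RNA1, which is also the difference between untrimmed reads. One nt less gave 0.642%, 1.35%, 0.325% and 1.18%. The read pairs with that difference of 10 nt, here of tied length, made up 34.8%, 12.2%, 22.8% and 38.5% of the read pairs of the 2 snoRNAs. They and the untrimmed reads were left out of these ends and starts along each snoRNA, a choice made after seeing the data. The far ends of RNA2 and the positions on 18S below keep them unless stated.

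With the read pairs of tied length left out, the ligated 3′ end of Snora44 in ES-1 and ES-2 was mostly its mature end. Of the RNA1 fragments of tied length, 277 of 4121 in ES-1 (6.72%) and 20 of 440 in ES-2 (4.55%) ended there, and with them kept the mean of both libraries was 70.4%. The values that follow leave them out. In ES-1, 7407 of 7832 RNA1 fragments (94.6%, 94.0 to 95.1) ended within 10 nt of the annotated 3′ end, and in ES-2 1861 of 2019 did (92.2%, 90.9 to 93.3). For Snora16a the counts were 5332 of 6026 (88.5%, 87.7 to 89.3) and 1574 of 1679 (93.7%, 92.5 to 94.8). Over snoRNA names with 100 such fragments the medians of ES-1 and ES-2 were 90.6% and 91.7%, so neither snoRNA stood far from the others. In ES indirect the shares were 66.0% (31 of 47) for Snora44 and 68.6% (35 of 51) for Snora16a, and in MEF they were 57.0% (53 of 93) and 43.2% (76 of 176), against a MEF median of 24.3%.

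The most frequent position was 1 base past the annotated end, where the extra base is the first base of the linker. In ES-1 and ES-2 respectively it held 61.8% and 61.6% of the Snora44 fragments, and 75.02% and 81.2% of those of Snora16a. A further 13.6% and 12.5% of Snora44 fragments ended 1 base later, against 6.01% and 5.18% for Snora16a. The bases past the annotated end in such fragments were read against the genome, after the linker base was taken off. Of 7250 Snora44 fragments of ES-1, 67.8% had none and 13.5% had G alone, the base that follows in the genome. Bases that the genome does not hold closed 15.7% of these fragments and 14.6% of 1845 in ES-2, and they were A alone in 9.52% (8.86 to 10.2) and 9.86% (8.59 to 11.3). These A bases mostly came after that G, as GA in 203 fragments of ES-1, GAA in 180 and GAAA in 104, whereas a lone A directly after the annotated end was found in 20. For Snora16a the shares were 1.38% of 5274 (1.10 to 1.74) and 0.768% of 1563 (0.440 to 1.34). The medians over snoRNA names were 1.97% and 2.00%, and Snora44 ranked 28 of 181 and 19 of 112. In MEF the counts were 0 of 46 for Snora44 (Wilson upper bound 7.71%) and 3 of 74 for Snora16a (4.05%, 1.39 to 11.3), with intervals that overlap, so the order of ES-1 and ES-2 was not seen there. ES indirect gave 5 of 30 (16.7%, 7.34 to 33.6) and 3 of 34 (8.82%, 3.05 to 23.0).
The 3′ end of Snora44 is shown beside the genome that follows it, in which the G of these fragments is followed by T, not A. Capitals mark bases inside the snoRNA.
Snora44 3′ end, chr4:131865955-131865996: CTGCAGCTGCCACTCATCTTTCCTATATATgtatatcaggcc

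The 5′ starts differed between the 2 snoRNAs in ES-1, ES-2 and MEF. In ES-1, 4178 of 4937 RNA2 fragments of Snora44 (84.6%, 83.6 to 85.6) started within 10 nt of the annotated 5′ start, and in ES-2 2521 of 3190 did (79.0%, 77.6 to 80.4). For Snora16a the shares were 46.6% (702 of 1505, 44.1 to 49.2) and 32.4% (134 of 413, 28.1 to 37.1). The medians over snoRNA names were 63.2% and 56.3%, with Snora44 above both and Snora16a below both. Snora44 ranked 58 of 200 in ES-1 and 35 of 123 in ES-2, and Snora16a 140 and 94. In MEF, 81.1% of 418 Snora44 fragments started there, the highest of 40 names, against 55.5% of 211 for Snora16a, and both lay above the median of 47.5%. In ES indirect the shares were 69.2% of 65 (57.2 to 79.1) for Snora44 and 50.5% of 97 (40.7 to 60.3) for Snora16a, whose intervals overlap, against a median of 29.4%. Snora16a thus lay below the median only in ES-1 and ES-2.

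Of all RNA2 fragments of Snora44 that were not of tied length, 75.6% in ES-1 and 70.0% in ES-2 began at position 1. Positions 12 and 13 were next, with 3.93% and 4.60% in ES-1 and 8.40% and 6.24% in ES-2. Snora16a began most often at position 2, in 28.2% and 22.3% of fragments. In ES-2 a further 9.69% of its fragments began at position 82 and 9.44% at position 85, beyond the H box. Starts in the 3′ part of the length, past its midpoint, were 16.5% (ES-1) and 39.5% (ES-2) of Snora16a fragments, against 2.43% and 2.57% for Snora44.

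The far end of RNA2, which is not a ligation point, was also concentrated in Snora44. It lay at position 57, the base before the H box, in 1370 of 6550 fragments of ES-1 (20.9%) and in 1805 of 3355 of ES-2 (53.8%). In MEF it lay most often at position 74, in 161 of 637 fragments (25.3%). Snora16a showed no single position of that weight in ES-1 or ES-2. In ES-1 its positions 137 and 136, at the end of the gene, held 8.46% and 7.91%. Its positions 77 and 114 held 7.07% and 6.92% in ES-1 and 5.76% and 7.76% in ES-2. In MEF position 80 of Snora16a held 17.6%. The concentration at position 57 was thus seen in both ES libraries, and at a different position in MEF.

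**Figure D2:**
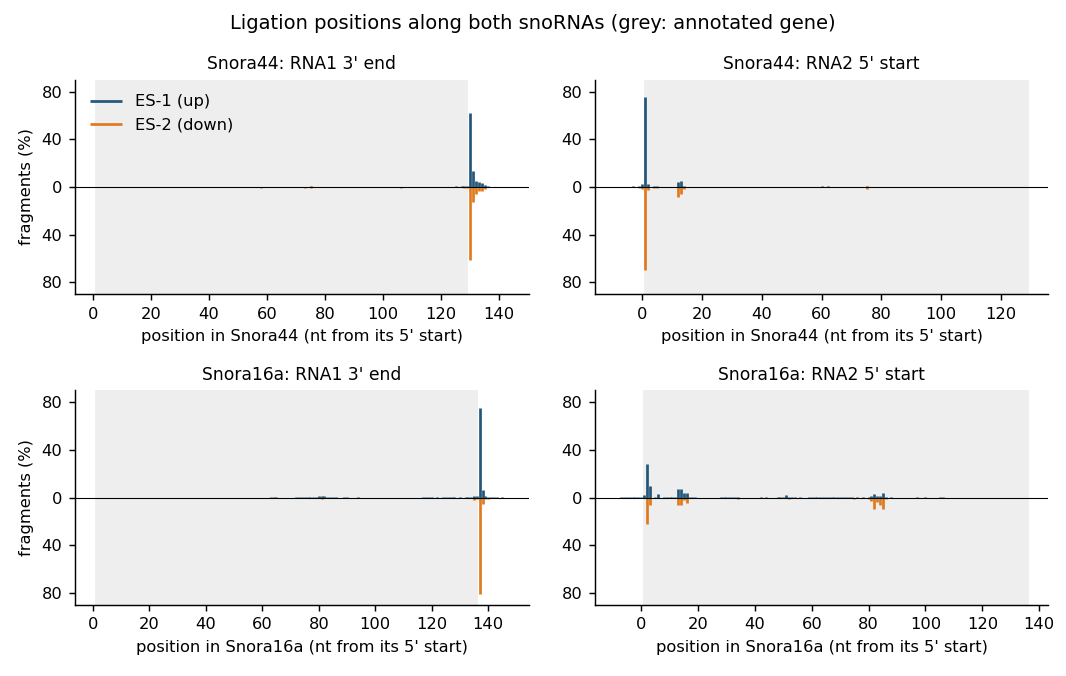
Ligation positions along Snora44 and Snora16a, with the position from the 5′ start on the x axis and the percent of fragments on the y axis. ES-1 is drawn upwards and ES-2 downwards, and grey marks the annotated gene. RNA1 3′ ends pile up 1 base past the end of both genes, whereas RNA2 starts pile up at position 1 of Snora44 and are spread along Snora16a.

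Both snoRNAs were also joined to themselves. For Snora44 there were 555 of these in ES-1 (2.84% of its read pairs, 2.62 to 3.08), 146 in ES-2 (2.46%, 2.09 to 2.88), 12 for ES indirect (8.51%, 4.94 to 14.3) and 9 for MEF (1.11%, 0.586 to 2.098). Snora16a had 235 in ES-1 (2.14%, 1.88 to 2.42), 35 in ES-2 (1.53%, 1.10 to 2.12), 21 in ES indirect (12%, 7.98 to 17.6) and 17 in MEF (2.63%, 1.65 to 4.17). The shares of ES indirect were thus the highest for both. The medians over snoRNA names were 1.43% in ES-1 and 1.79% in ES-2. Among fragments that did not overlap, RNA1 lay 3′ of RNA2 in 97.8% and 96.7% of Snora44 read pairs in ES-1 and ES-2, and in 94.4% and 93.8% of those of Snora16a. That order is not independent of the ligation positions above. An RNA1 that ends at the 3′ end of the gene leaves room for RNA2 on its 5′ side only. ES indirect did not show this order, with 4 read pairs that way and 3 the other for Snora44 and 9 and 9 for Snora16a. The end of Snora44 was joined to its own start in 216 of the 555 (38.9%) and 67 of the 146 (45.9%), and for Snora16a in 55 of the 235 (23.4%) and 12 of the 35 (34.3%). In ES indirect it was so in 2 of 12 and 4 of 21, and in MEF in 0 of 9 and 1 of 17. The 2 fragments overlapped in 192 of 555 (ES-1) and 23 of 146 (ES-2) of these read pairs for Snora44, and in 56 of 235 and 3 of 35 for Snora16a. In MEF they did in 7 of 9 and 15 of 17, and in ES indirect in 5 of 12 and 3 of 21. Overlapping fragments hold the same bases and so are not 2 parts of 1 molecule, unless both reads cover the same stretch, which was not tested. In the other read pairs, a join within 1 molecule and a join between 2 copies of the same RNA cannot be told apart.

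rRNA was the main partner class in ES-1 and the largest in ES-2. Of 18996 partner ends of Snora44 in ES-1, 11984 were ribosomal (63.1%, 62.4 to 63.8), and of 5795 in ES-2, 2807 were (48.4%, 47.2 to 49.7). For Snora16a 7336 of 10767 (68.1%, 67.2 to 69.0) and 1326 of 2256 (58.8%, 56.7 to 60.8) were. The medians over snoRNA names with 100 partner ends were 66.6% and 57.1%, so Snora44 lay below the median in both ES libraries and Snora16a slightly above. In ES indirect the shares were 39.5% for Snora44 and 37.0% for Snora16a, against a median of 43.9%. In MEF they were 30.3% and 30.8%, against 30.1%. The removal of rRNA and the fragment length differed between ES-1 and ES-2, and their part in these values was not tested.

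Large-subunit rRNA supplied 40.4% of the partner ends of Snora44 in ES-1 and small-subunit rRNA 21.4%. In ES-2 they supplied 27.5% and 19.9%. For Snora16a the values were 48.4% and 18.7% in ES-1 and 42.6% and 15.3% in ES-2, close to those of the other snoRNA names together, at 46.1% and 19.6% in ES-1 and 42.2% and 15.5% in ES-2. The small subunit thus made up 34.7% (33.8 to 35.5) of the large- and small-subunit ends of Snora44 in ES-1, rank 34 of 343 names, and 42.0% (40.2 to 43.9) in ES-2, rank 9 of 231. Snora16a had 27.9% and 26.5%, against medians of 29.3% and 26.2%. The lean of Snora44 towards the small subunit was present in both ES libraries and exceeded counting error in each. It was not seen in MEF, where small-subunit ends were 28 beside 208 large-subunit ends of Snora44 (11.9%, 8.34 to 16.6) and 22 beside 169 of Snora16a (11.5%, 7.73 to 16.8), against a median of 12.8%. ES indirect held 7 small-subunit and 25 large-subunit ends of Snora44 (21.9%, 11.02 to 38.8) and 5 and 38 of Snora16a (11.6%, 5.07 to 24.5), against a median of 18.2%, and both intervals hold that median.

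Of the partner ends of Snora44, 15.3% (ES-1) and 9.46% (ES-2) were other snoRNAs, as were 13.1% and 10.6% of those of Snora16a. Protein-coding names were 9.72% and 20.8% for Snora44 and 8.31% and 15.1% for Snora16a. With only fragments of 20 nt or more that matched the stated place and held no linker or ribosomal run, they came to 698 of the 18996 partner ends of Snora44 and 379 of the 10767 of Snora16a in ES-1, and to 169 of 5795 and 90 of 2256 in ES-2, so the higher share of Snora44 was not kept in ES-2. Small nuclear RNAs were 1.11% and 0.276% for Snora44, and 0.864% and 0.488% for Snora16a. Transfer RNAs were 0.537% and 1.35%, and 0.232% and 0.576%. Names that label H/ACA snoRNAs made up 84.6% and 84.4% of the H/ACA and C/D partners of Snora44 and 86.0% and 87.3% of those of Snora16a, where the medians of H/ACA names were 85.4% and 81.8%. Both snoRNAs were thus joined to H/ACA and C/D snoRNAs in much the proportions of other H/ACA snoRNAs.

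**Figure D3:**
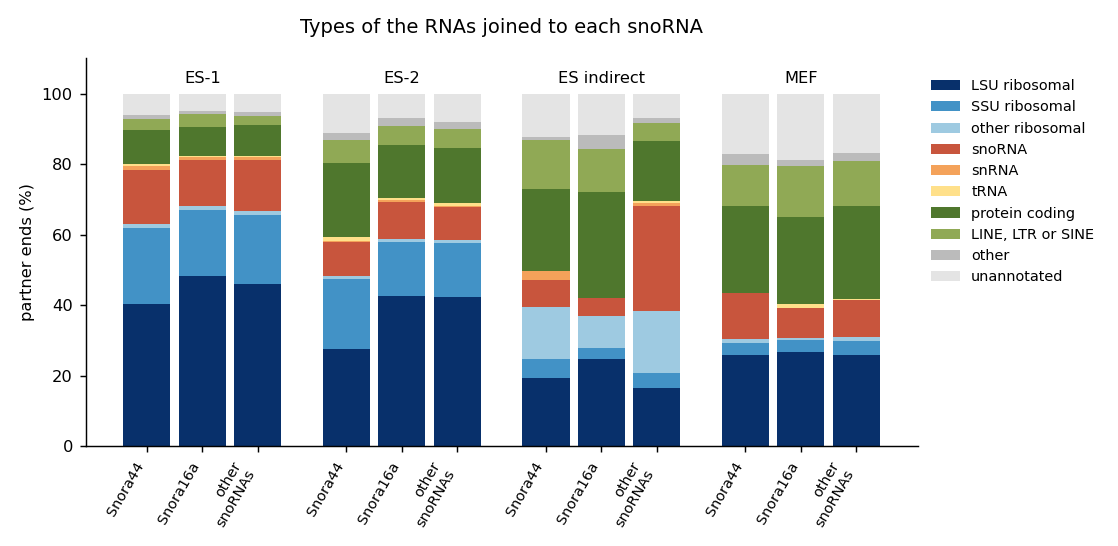
Types of RNA at the other end of read pairs of Snora44, Snora16a and all other snoRNA names in each library (x axis), as a percent of partner ends (y axis). Stacked colours are partner types. rRNA fills most of the bars in ES-1, and the small-subunit part is larger in Snora44 than in Snora16a in ES-1 and ES-2.

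The small-subunit ends of Snora44 held a peak at 1 place of 18S rRNA in ES-1 and ES-2, although most of them lay elsewhere. Positions were read on the annotated copy at chr17:39983295-39985112, which is 1818 nt long. The most frequent ligation point of Snora44 in ES-1 was chr17:39984687, and a window of 51 nt around it, chr17:39984662-39984712, was fixed on those ES-1 values, so the ES-1 share is a description. It held 712 of 3178 Snora44 ends on the copy (22.4%, 21.0 to 23.9), whereas the other snoRNA names together had 5.78% of 132460. In ES-2, which was not used to place the window, it held 356 of 838 (42.5%, 39.2 to 45.9), against 10.3% of 23911 ends of the others. Snora16a had 96 of 1537 (6.25%, 5.14 to 7.57) in ES-1 and 27 of 248 (10.9%, 7.59 to 15.4) in ES-2, both at the level of the other snoRNAs.

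Snora44 ranked 3 of 240 names by that share in ES-1 and 3 of 106 in ES-2. Both names above it in ES-1, ENSMUSG00000064722_SNORA44 and ENSMUSG00000065709_SNORA44, carry near-copies of Snora44, so reads of the family may be split between them. In ES-2 the names above it were ENSMUSG00000064722_SNORA44 and ENSMUSG00000077483_SNORA42. The window was placed on ES-1, so the ES-1 rank and the ES-1 values that follow are descriptions, and only those of ES-2 are independent of it. The excess of Snora44 was present on each flow cell, at 24.4% and 20.1% in ES-1 and 43.7% and 40.6% in ES-2. It was also present with fragments of 20 nt or more (20.7% and 38.9%) and without the read pairs of tied length (28.4% and 48.4%). The 18S fragments were on the sense strand in 100% of cases, and 99.4% and 98.9% matched the stated place. In MEF only 17 Snora44 ends fell on the copy, of which 1 was in the window, too few for a comparison.

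In the window the 18S fragment was mostly RNA2, with Snora44 as RNA1 in 669 of the 712 read pairs in ES-1 and 292 of the 356 in ES-2. Snora44 was RNA2 in 6.04% (ES-1) and 17.98% (ES-2) of them, against 20.03% and 39.7% over its other ribosomal ends. Where the end of that RNA1 could be read, it lay within 10 nt of the 3′ end of Snora44 in 97.4% and 92.6% of fragments. Where Snora44 was RNA2, it started within 10 nt of its 5′ start in 90.7% and 75% of fragments. The joined end was thus mostly the 3′ tail when Snora44 came first and the 5′ start when it came second.

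Snora44 held a run of bases complementary to 18S beside that point. The run covered 12 bases, positions 51 to 62 of Snora44, which overlaps the H box, and paired with chr17:39984692-39984703, which starts 5 bases after the most frequent ligation point. Of 945 snoRNA genes with ends, 3 (0.317%) had a run of this length or more in the 121 bases around the point, and all belonged to the SNORA44 family. In the whole copy 42 genes (4.44%) had one. Of the names that ranked above Snora44 in the window, ENSMUSG00000064722_SNORA44 had a run of 12 there, ENSMUSG00000065709_SNORA44 a longest run of 7, and ENSMUSG00000077483_SNORA42 none of 6 or more. The median longest run in the 121 bases was 6, which was also that of Snora16a. The 18S fragment covered the run in 76.0% of the 712 read pairs and 83.1% of the 356. That cover follows largely from the place of the window beside the run, and no like share was computed for other snoRNAs. The Snora44 fragment held its side of the run in 41.4% and 38.8%.
Both strands of the match are shown, with the complementary run in capitals. The Snora44 stretch is chr4:131865891-131865932, and the 18S stretch is chr17:39984627-39984747, both 5′ to 3′ on the plus strand of NCBIM37.
Snora44 around the run: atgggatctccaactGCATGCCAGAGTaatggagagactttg
18S around the point: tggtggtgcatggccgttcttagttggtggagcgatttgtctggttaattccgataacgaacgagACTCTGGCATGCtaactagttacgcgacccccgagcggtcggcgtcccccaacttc
The letters show only that the run exists, and whether the 2 RNAs paired there was not tested.

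**Figure D4:**
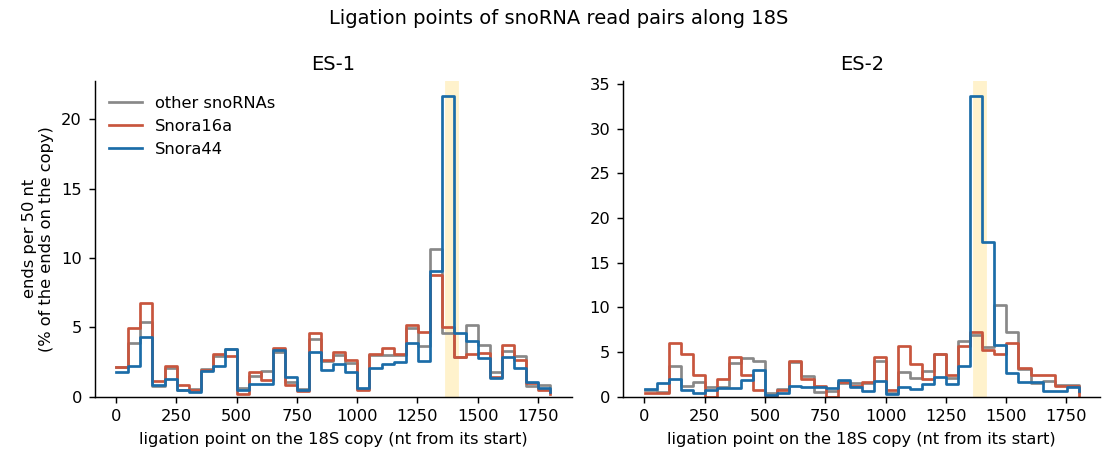
Ligation points along the annotated 18S copy, with distance from its start in nt on the x axis and the percent of ends per 50 nt on the y axis, for Snora44, Snora16a and the other snoRNAs in ES-1 and ES-2. The peak of Snora44 lies in the marked window, which holds 22.4% of its ends in ES-1 and 42.5% in ES-2, whereas Snora16a follows the other snoRNAs.

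In the large subunit no stated place exceeded the other snoRNAs by as much as the small-subunit window did, but these shares are not comparable. The window's share is over ends on 1 annotated copy. The large-subunit shares are over ends at all annotated places, which lie on several chromosomes. Ends of 1 position that were split over such places would lower each share. Whether 1 position of the large subunit drew as large a share was therefore not tested. The 50 nt of annotated large-subunit rRNA where Snora44 differed most from the other snoRNAs in ES-1 were chr11:108872950-108872999, with 106 of 7354 ends (1.44%, against 0.556% in the others) and 41 of 1521 in ES-2 (2.70% against 1.27%). For Snora16a they were chr9:123371150-123371199, with 111 of 4956 ends in ES-1 (2.24% against 1.01%) and 11 of 913 in ES-2 (1.20%, 0.674 to 2.14, against 0.300%). Both were chosen as the highest of many in ES-1, and only the ES-2 values are independent of that choice. Reads of repeated rRNA copies were placed by the aligner at 1 of several like places, so these coordinates name the stated place only.

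Partners other than rRNA were compared with the read pairs predicted from each RNA's total. The prediction is what joining at random would give, the product of both totals over the number of ends, which is 2 for each read pair. Every pair of RNAs seen was put to a one-sided Fisher's exact test, adjusted by Benjamini-Hochberg, and called partners had 3 or more read pairs and an adjusted p below 0.05. The study's text names Fisher's exact test with this adjustment and does not give its unit. The unit here is the read pair, so the test describes the libraries and holds no replicate error. It sets each pair against the product of the totals over the read pairs, that is against 2 times the prediction, so a pair can lie above the prediction and still not pass. In ES-1 and ES-2 merged, 46 of 2633 partners of Snora44 and 17 of 1383 of Snora16a were called, that is 1.75% and 1.23%, where 0.895% of all 227775 pairs tested were. With the ends as units, a setting chosen after seeing the data, 104 and 39 were called, against 2.01% of all pairs. In ES-1 alone 23 of 1877 and 17 of 1091 were called, against 1.09% of all pairs. In ES-2 6 of 473 partners of Snora16a and 31 of 1252 of Snora44 were called, against 0.719%. MEF gave 5 of 251 for Snora44 and 1 of 185 for Snora16a, against 0.842%. ES indirect gave 0 of 59 and 0 of 65 by Fisher's exact test, against 2.54% of all pairs there, though 35 and 41 partners had an unadjusted and 30 and 33 an adjusted p under 0.05, since only 0 and 2 had 3 read pairs.

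A pair needs 3 read pairs to be called, and more of an abundant RNA's partners reach them. Of the partners with 3 read pairs in ES-1 and ES-2 merged, 9.33% of those of Snora44 and 7.69% of those of Snora16a were called, where 11.1% were over all pairs. Over partners with 3 read pairs in ES-2 alone, 18.9% of those of Snora44 and 13.04% of those of Snora16a were called, against 14.8%. The excess of calls over all partners seen was thus not present in the merged libraries once that minimum was met. Of the 46 partners of Snora44, 32 were seen in both ES libraries and exceeded the prediction in both. Of the 17 of Snora16a, 10 were seen in both and exceeded it in both. Both libraries entered the merged calls, and 1 read pair exceeds any prediction below 1. These counts are therefore no check of 1 library by the other.

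Called partners of Snora44 bore 32 protein-coding names, 5 snoRNA names, 3 names of long terminal repeats, 2 of simple repeats and 2 of transfer RNAs, beside 1 lincRNA and 1 of unknown type. Those of Snora16a bore 11 protein-coding names, 2 snoRNA names, 2 of LINEs and 2 of long terminal repeats. Most fragments matched the stated place for 30 of the 46 names and 12 of the 17, but many such fragments fit other RNAs as well. For 10 of the 46 most fragments shared a run of 16 bases with Snora44 itself, on either strand, for 14 with rRNA, for 14 most were under 20 nt, and for 1 most held linker bases. For 12 none of these held and most fragments matched the stated place. For Snora16a the counts were 5, 2, 5 and 0 of 17, with 8 that had none. A name here is therefore only the authors' annotation of the place where a fragment was put.

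The called snoRNA partners of Snora44 were 4 copies of the SNORA44 family and SNORA76. The copy ENSMUSG00000064722_SNORA44 (chr2:119566564-119566692, 88.4% identical to Snora44) had 38 (ES-1) and 20 (ES-2) read pairs, where 2.28 were predicted for both. The copy ENSMUSG00000065709_SNORA44 had 47 and 8, ENSMUSG00000065754_SNORA44 28 and 16, and ENSMUSG00000064804_SNORA44 10 and 4. A run of 16 bases of Snora44 was found in 58 of 58, 55 of 55, 44 of 44 and 13 of 14 of their fragments, in that order, so Snora44 joined to itself and Snora44 joined to a copy cannot be told apart in them. In the same order, 19 of 58, 46 of 55, 44 of 44 and 13 of 14 fragments matched the stated place of the copy. That match allowed 15% mismatches, so it need not separate a copy from Snora44. In MEF ENSMUSG00000065754_SNORA44 (6 read pairs) and ENSMUSG00000064722_SNORA44 (4) were called as well. The 2 annotated copies of Snora16a, of the SNORA16 family, had no ends in any library.

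SNORA76 (ENSMUSG00000080540_SNORA76, chr11:106362557-106362691), another H/ACA snoRNA, was joined to Snora44 in 14 read pairs of ES-1 and 34 of ES-2. The 48 were 4.91 times the 9.77 predicted (Fisher's exact test, adjusted p = 1.10e-05), and 47 of them matched the stated place. It was called in each ES library alone, and the greater part of its read pairs came from ES-2, the shallower library. Its 2 read pairs in MEF, where 0.857 were predicted, did not pass (adjusted p = 0.570 by Fisher's exact test).

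The called snoRNA partners of Snora16a were 2 of the U17 family, which act in the processing of 18S rRNA. Snora73a (ENSMUSG00000064387_Snora73a, chr4:131908690-131908894) was joined to it in 130 read pairs of ES-1 and 31 of ES-2, where 47.7 were predicted for the sum of 161, so the excess was 3.38 times (Fisher's exact test, adjusted p = 1.66e-07). All 161 matched the stated place. The excess was 2.78 times in ES-1 alone and 5.19 times in ES-2 alone. With ribosomal ends kept in the table of pairs the read pairs were 1.63 times the prediction and the name was not called. ENSMUSG00000065158_SNORA73 (chr13:12681832-12682058) had 6 and 3, a sum of 9 against 0.879 predicted, 10.2 times (adjusted p = 0.00616 by Fisher's exact test). Without ES-1 its excess was 17.9 times, on 3 read pairs, and without the read pairs of tied length 16.3 times. Without ES-2 it was 8.18 times, and with ribosomal ends kept 7.62 times. Whether its fragments also fit Snora73a was not tested.

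Snora73b (ENSMUSG00000065353_Snora73b), which lies beside Snora73a, had 87 read pairs with Snora16a against 49.2 predicted and was not called, but passed with the ends as units (1.77 times, adjusted p = 0.000121 by Fisher's exact test). Snora73a and Snora73b had 110 and 117 read pairs with Snora44, where 107 and 110.4 were predicted, and neither was called in either test.

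The other names called in each ES library alone were repeats and protein-coding genes. For Snora44 the simple repeat (TCTA)n had 33 and 9 read pairs, of which 37 shared a run with Snora44 and all 42 had fragments under 20 nt, and Bpnt1, which encodes a nucleotide phosphatase, had 21 and 37, all 58 with a ribosomal run. Lrrc4c, which encodes a netrin-G ligand, had 6 and 5, of which 9 shared a run with Snora44. Park2, which encodes the ubiquitin ligase parkin, had 6 and 13, of which 1 of 19 matched the stated place. For Snora16a the endogenous retrovirus MERVL_2A-int had 54 and 5, of which 58 of 59 shared a run with Snora16a, and Sox5, which encodes a transcription factor, had 4 and 3, of which 6 of 7 did. None of these 6 names had fragments that mostly matched its place and were free of both kinds of run.

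Of the further named partners of Snora44, BC055004 had 2 and 13 read pairs (with 0 of 15 fragments at the stated place), tRNA-Ser-TCY had 15 and 8 (with 21 of 23 fragments under 20 nt), and the long terminal repeat BGLII had 13 and 2, of which 12 of 15 shared a run with Snora44. For Snora16a, the LINE names Lx8 (30 and 10) and Lx9 (23 and 4) shared a run with Snora16a in 27 of 40 and 22 of 27 fragments. Pgcp had 1 and 2, all with such a run, and Hs3st5 (1 and 3) and ORR1C2-int (2 and 1) held ribosomal runs in every fragment. Zfhx3, which encodes a transcription factor, had 4 and 1, with no run of either kind and 2 of 5 fragments at the stated place. Fragments of a member's own run under another name were 222 (ES-1) and 110 (ES-2) for Snora44, and 139 and 24 for Snora16a.

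In MEF the partners with the most read pairs were the SINE names B4A (17 with Snora44, 26 with Snora16a) and B4 (9 and 11), Agap1 (21 and 10), Fhit (13 and 17) and L1M4 (8 and 9). None of these was called, and linker bases were found in 17 of 17, 9 of 9, 21 of 21, 13 of 13 and 8 of 8 fragments joined to Snora44. The names called in MEF beside the SNORA44 copies were looked at after their values were seen. For Snora44 they were ENSMUSG00000077611_SNORA74 and ENSMUSG00000065200_SNORA65, each with 3 read pairs, and Chrnb2, which encodes a subunit of the nicotinic receptor, with 7. For Snora16a it was ENSMUSG00000065637_SNORA14, with 4. In ES indirect the partners with the most read pairs were ENSMUSG00000064722_SNORA44, Dnahc7b and B1_Mur4 with Snora44, each at 2, and B4A (4) and Fhit (3) with Snora16a.

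As a class, the H/ACA snoRNAs were joined to Snora44 and Snora16a about as often as their ends predicted in ES-1. Their read pairs with Snora44 were 2270 in ES-1 and 432 in ES-2, which is 0.954 and 0.920 times the prediction over all H/ACA names of the library. With Snora16a they were 1122 and 200, which is 0.947 and 1.27 times. In MEF the 99 and 51 read pairs were 2.53 and 1.72 times the prediction. C/D names had 412 and 80 read pairs with Snora44 (0.816 and 0.589 times) and 183 and 29 with Snora16a (0.739 and 0.654 times), below the prediction in both ES libraries. U3 names, which act in the cleavage of rRNA precursors, had 25 and 5 with Snora44 and 7 and 2 with Snora16a. These ratios are descriptions with no test, and those of other snoRNAs were not computed. In ES-1 and ES-2 merged, 152 H/ACA names were seen with Snora44, of which 5 were called, 4 of them copies of Snora44, and 131 with Snora16a, of which 2 were, where 0.895% of all pairs were called. No C/D or U3 name passed. Of the messengers of H/ACA proteins, 2 were seen with Snora44 at 1 read pair each and 1 with Snora16a, and none was called.

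Protein-coding partners were mostly single fragments spread over many genes. In ES-1 the 1846 protein-coding ends of Snora44 fell in 1314 genes and the 895 of Snora16a in 696. Over all fragments of ES-1, those in exons were on the gene's strand in 83.2% for Snora44 and 88.4% for Snora16a, and those in introns in 47.7% and 47.0%. Among fragments of 20 nt or more that matched the stated place and held no linker or ribosomal run, the exon shares were 98.1% of 523 and 98.7% of 298, and the intron shares 76.6% of 171 and 72.2% of 79. In ES-2 these filtered shares were 95.9% of 123 and 97.2% of 71 in exons, and 64.4% of 45 and 73.7% of 19 in introns. Such fragments were 698 of the 1846 and 379 of the 895 in ES-1, and 169 of 1205 and 90 of 340 in ES-2.

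**Figure D5:**
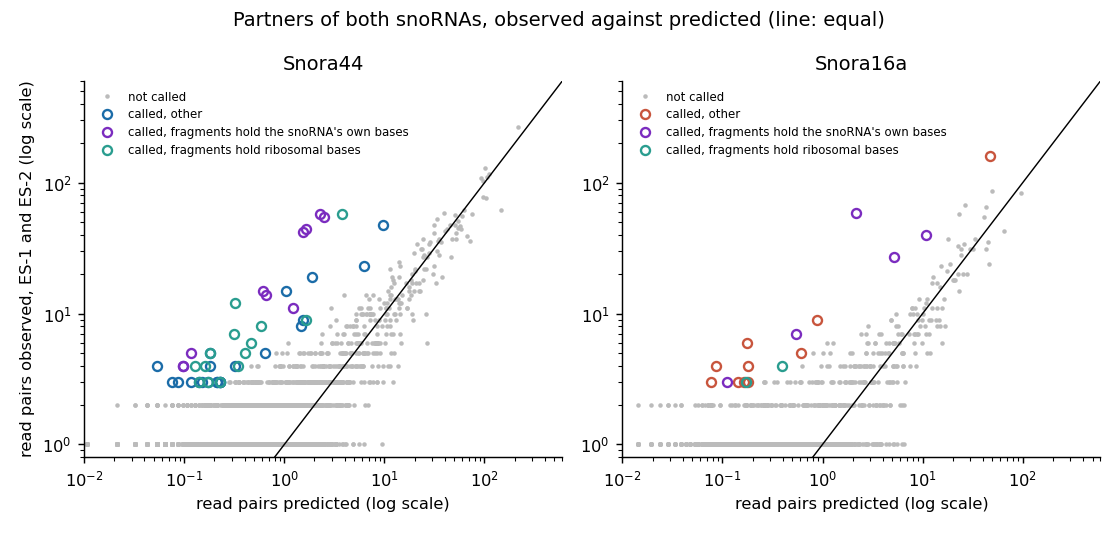
Read pairs observed (y axis, log scale) against predicted (x axis, log scale) for each partner of Snora44 and Snora16a other than rRNA, in ES-1 and ES-2 merged. Each point is a partner, the line marks equal values (the prediction of joining at random), and open circles are called partners, coloured by whether their fragments shared a run with the member or with rRNA. Of the 46 called partners of Snora44, 10 carry runs of Snora44 and 14 ribosomal runs, and called partners lie above the line.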

How the data were processed

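The deposited files list read pairs, 1 line each, with the place, strand, sequence, type, name and region of RNA1 and RNA2, so each value here is a count of lines of the authors' files. Per the labels and the study's methods, the authors removed PCR duplicates, split reads at the linker and mapped both fragments to mm9 (NCBIM37). The submitters' processing notes name TopHat2 version 2.1.1, and no annotation release is given in the sources used here. Aligned sequences are written as on the plus strand, the strand stated for RNA2 is the opposite of its RNA, and an RNA1 that ends 1 base past a gene carries the first linker base, as tested on the files.

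Lines of equal coordinates on both sides were collapsed, which left 2310134 of 3230403 read pairs in ES-1, 1241787 of 1312314 in ES-2, 1655476 of 3302146 in ES indirect and 373978 of 474526 in MEF. Brain libraries were not used here, so 4 of the 6 libraries were used, 2 of them ES. The members, marker genes and partner lists were chosen with earlier results of these data known. Shares carry 95% Wilson intervals and a count of 0 a limit of 3 counts. The shares of RNA1 3′ ends and RNA2 5′ starts along each snoRNA leave out read pairs whose RNA2 is 10 nt longer than RNA1. They also leave out fragments of 90 (RNA1) or 100 nt (RNA2). Other positions, those on 18S and of the far end of RNA2 among them, keep both. Ranks by the share of a library's read pairs cover all snoRNA names with an end. Other ranks and medians cover snoRNA names with at least 100 ends (50 for the 18S window and for the H/ACA share of snoRNA partners, 200 for the bases past the end). A fragment matched its stated place with at most 15% mismatches, runs shared with a member or rRNA were 16 bases and runs of linker 10.

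For partners, ends in rRNA and pairs within 2000 bases were left out, the number of read pairs predicted was the product of both totals over the number of ends, and a one-sided Fisher's exact test with the read pairs as units was adjusted by Benjamini-Hochberg over all pairs of RNAs seen in a library. The test was tested on simulated data. ES-1 and ES-2 give the spread between assays, since nothing else is replicated. For each snoRNA the partners named are the 10 with most read pairs among those called in the merged ES libraries and seen in both, the 5 with most in ES indirect and in MEF, those called in each ES library, the RNAs of the host locus and the rRNA names. Alternatives varied the units of the test, collapsing, the minimum of read pairs, rRNA ends, short fragments, shared runs, windows and the library. Python 3.11.15, pandas 2.3.3, scipy 1.17.1, statsmodels 0.14.6, pysam 0.24.0, biopython 1.88 and matplotlib 3.10.9 were used, with the GENCODE annotation of NCBIM37.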

Additional observations from a re-analysis of the deposited data

How the results depend on the processing

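No paired analysis was possible because ES and brain alone share replicate numbers, brain was not used here and these groups were not compared. The number of called partners depended most on the processing. For Snora44 (46) it was 182 with every line counted, 24 with a minimum of 5 read pairs and 30 with ribosomal ends kept, and 23 to 31 without either ES library. For Snora16a (17) it was 138, 8 and 9 under the same settings, 58 with no minimum and 6 to 17 without either ES library, the lower count without ES-1. Over all pairs the share called, 0.895% in the main setting, moved as well. It was 6.34% with every line counted, 0.393% with a minimum of 5 and 0.533% with ribosomal ends kept. It was 21.4% with no minimum, 0.719% without ES-1 and 1.09% without ES-2. The share over all pairs thus also depended on the processing, but not always in step with the 2 snoRNAs. With no minimum 65 partners of Snora44 were called. Without ES-2 the share over all pairs rose, whereas the calls of Snora44 fell to 23 and those of Snora16a stayed at 17. Of the 182 and 138, 44 and 15 were among those called after collapsing. With the ends as units of the test, a setting chosen after seeing the data, 104 and 39 were called, against 2.01% of all pairs. These held all 46 and 17. Snora73a fell to 1.63 times the prediction with ribosomal ends kept and was not called (adjusted p = 1 by Fisher's exact test), against 2.78 to 5.19 times under the other settings. Lrrc4c was not called without fragments under 20 nt (adjusted p = 0.0619 by Fisher's exact test), where no read pair of (TCTA)n or Sox5 was left, and none of Bpnt1 was left without linker, ribosomal or shared runs, a setting chosen after seeing the data.

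Without ribosomal read pairs in the denominator the mean ES shares rose to 1.60% for Snora44 and 0.658% for Snora16a, and read pairs that join both to 0.199%. RNA1 ends of Snora44 at its 3′ end were 89.8% with a window of 5 nt and 70.4% with the read pairs of tied length kept, and those of Snora16a 77.1% with them kept. Read pairs of Snora44 with itself were 3.75% with every line counted and 1.96% without overlapping fragments, and those of Snora16a 2.72% with every line. The cause was not tested. Of the values of these comparisons under other settings, 80 moved by less than the spread between ES-1 and ES-2 (counts of calls by less than 1.5 times), and 20 moved by more. The 80 include the shares of each ES library alone, which lie within that spread of their own mean in any data. The count is therefore no measure of how stable the results are.

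Depth limits ES indirect (316 read pairs) and MEF (1457), where few partners reached 3 read pairs. Leaving out fragments under 20 nt raised the MEF shares to 0.363% for Snora44 and 0.287% for Snora16a, and leaving out read pairs of tied length, a setting chosen after seeing the data, to 0.455% and 0.341%.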
